A study of Mus musculus with 12 samples.

Results

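The livers compared here came from male mice born to dams on an obesogenic diet, and the comparison is between offspring weaned onto the same obesogenic diet (OO) and offspring weaned onto control chow (OC). The members were taken by the names of the table's columns: 3 OO and 3 OC libraries, which are 6 of the 11 RNA-sequencing libraries in the deposited table, with all of its 12086 genes. Of these genes, 12080 were tested, and 6 listed at exactly 0 in every library of a group were set aside. All animals were wild-type C57BL/6 males, and livers were taken at postnatal day 84, at 12 weeks of age, after fasting. The dams of both groups were C57BL/6J females kept until weaning on a diet of 10% simple carbohydrate and 20% lipid by weight, offered beside condensed milk that held 55% simple carbohydrate, 8% lipid and as much protein (8%). Litters were reduced to 6 pups, and at day 21 the sons were assigned at random to the dams' diet (OO) or to chow of 7% simple carbohydrate and 3% lipid (OC). The other 5 libraries, from sons of chow-fed dams weaned onto chow (CC, 3 libraries) or onto the obesogenic diet (CO, 2 libraries), entered the fit as well, so that the groups share 1 estimate of the spread. The labels do not say which animals shared a litter or a dam, so that p-values measure the spread between these libraries.

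A high-fat, high-sugar diet reaches the liver as free fatty acids, sugars and cholesterol, and the hepatocyte answers through nuclear receptors and SREBP factors that set the transcription of lipid, sterol and drug-metabolising enzymes. Interferons act on the same cells through surface receptors, JAK kinases and STAT and IRF factors, which bind a promoter sequence called the interferon-stimulated response element and switch on antiviral effectors, antigen processing and guanylate-binding proteins. The liver is also the source of hepcidin, the hormone that closes the iron exporter ferroportin, and hepcidin transcription follows BMP6 from the sinusoidal endothelium, through SMAD factors, and interleukin 6, through STAT3.

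Values are the authors' scaled gene counts, close to CPM, and each library carries the number of its column (OC.0, OC.1, OC.2 and likewise for OO), which pairs nothing. The estimated depth was between 3976163 (OO.1) and 7969061 reads (OC.0) in 5 of the 6 OC and OO libraries and 27837599 reads in OO.0, and the value of 3 reads lay between 0.1 (OO.0) and 0.829 (OO.1). The 13 tested hepatocyte markers summed to 76410, 95340 and 79000 in OC and to 79650, 73480 and 73250 in OO, with a median log2 difference of -0.01. Libraries also stood apart within groups. The 19 tested exocrine pancreas markers summed to 7606 in OC.0, against 122 and 28.1 in the other OC libraries and 17.8 to 163 in OO. Lars2 took 12.9% of the total of OO.1, against at most 0.96% in the other OC and OO libraries. Acute phase transcripts were high in OC.1, where the haptoglobin gene Hp stood at 9698. Values without single libraries are given beside the results that they moved most.

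Few genes passed the threshold. At an adjusted p under 0.05 (limma, Benjamini-Hochberg over all tested genes), 11 genes differed between OO and OC, or 0.0911% of those tested. Of these, 7 were higher in OO (0.0579%) and 4 lower (0.0331%). At an unadjusted p under 0.05 there were 555 higher genes (4.59%) and 407 lower genes (3.37%). Every OO library lay above every OC library for 798 genes (6.61%) and below for 736 (6.09%), and the median log2 difference over all tested genes was 0.0. The genes that rose were antiviral and antigen-processing genes and an unnamed gene, and those that fell were Srgap3, Htatip2, Cbr1 and Hsd17b7. Leaving out 1 library moved the number of genes called over a range of 0 to 21. It was 0 without OC.0 (limma, 736 at an unadjusted p under 0.05, against 962 or 7.96% with it), 1 without OO.2, 2 without OC.2, OO.0 or CC.2, 6 without OC.1 or CC.0, and 21 without OO.1.

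**Figure D1:**
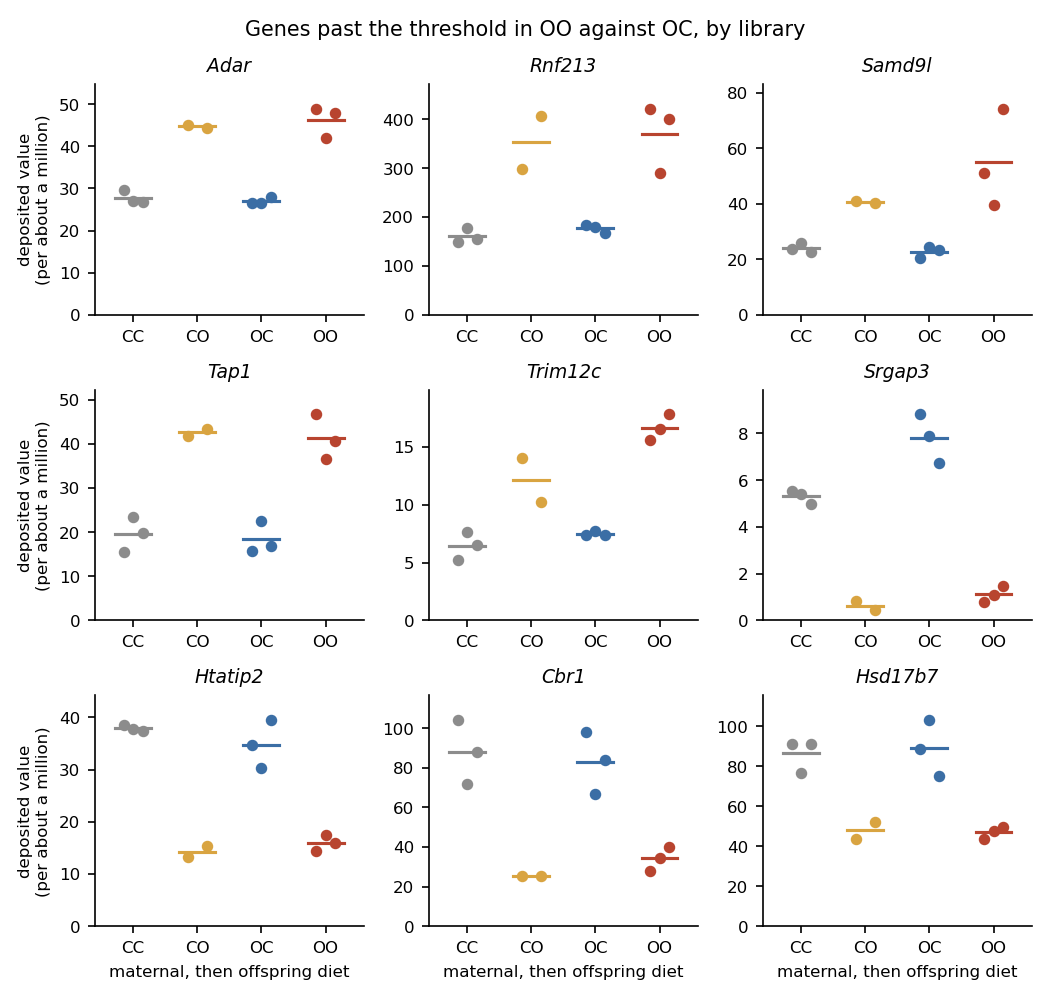
Deposited values (vertical axes, close to CPM, starting at 0) of 9 of the 11 genes past the threshold in OO against OC, by group of maternal and then offspring diet (horizontal axes). Points are libraries and lines are group means. In every panel the 3 OO libraries lie apart from the 3 OC libraries, and the CO libraries lie on the same side of CC.

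Among the genes that rose, Adar encodes the double-stranded RNA adenosine deaminase that edits adenosine to inosine and has an interferon-inducible form. It stood at 26.6, 26.5 and 28.04 in the OC libraries and at 49.0, 42.0 and 48.0 in the OO libraries. The log2 difference was 0.76 ± 0.10 (SE, limma, adjusted p = 0.0373), and the groups lay far apart relative to the spread within each. Rnf213, a very large interferon-induced ubiquitin ligase that coats intracellular bacteria and lipid droplets, stood at 184, 179.7 and 168 in OC and at 422, 291 and 399.8 in OO, a log2 difference of 1.05 ± 0.16 (SE). Samd9l, an antiviral protein that stops translation in infected cells, stood at 20.3, 24.5 and 23.3 in OC and at 51.2, 39.5 and 74.2 in OO, a log2 difference of 1.21 ± 0.19 (SE). OO libraries were the more variable group for both genes, with no overlap with OC.

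Tap1 encodes one chain of the transporter that carries peptides into the endoplasmic reticulum for loading onto MHC class I. Its values were 15.7, 22.5 and 16.9 in OC and 46.6, 36.5 and 40.7 in OO, a log2 difference of 1.16 ± 0.17 (SE). Trim12c, a tripartite motif gene of the cluster that also holds Trim30a, had nearly equal values of 7.401, 7.75 and 7.34 in OC and of 15.6, 16.6 and 17.8 in OO, a log2 difference of 1.10 ± 0.17 (SE). Trim12c has a close relative in Trim12a, and how the counting divided reads between them is unknown. The gene listed only as ENSMUSG00000054588 lay between 1.91 and 2.59 in OC and at 12.9, 13.8 and 21.1 in OO, the largest rise among the genes called (log2 difference 2.58 ± 0.38, SE). The adjusted p of these 6 genes was 0.0373 in limma. Each of the 5 with a symbol lost its call in at least 5 of the 11 fits that left out 1 library, Samd9l in 10 of them, without a change of sign.

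The gene with the smallest p in the comparison fell. Srgap3 encodes a GTPase-activating protein that bends membranes at the leading edge of cells. It stood at 8.81, 7.91 and 6.75 in OC and at 0.768, 1.11 and 1.47 in OO. The log2 difference was -2.38 ± 0.24 (SE, 95% interval -2.90 to -1.86, limma, adjusted p = 0.00525). The OO.1 value lay close to the 3-read level of that library (0.829), and every OO library was far below every OC library. Its call held in 10 of the 11 fits that left out 1 library.

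Htatip2 encodes an NADPH-binding oxidoreductase-like protein and is a target of the oxidative stress factor NRF2. Its values fell from 34.7, 30.3 and 39.5 in OC to 14.5, 17.4 and 15.8 in OO, a log2 difference of -1.10 ± 0.13 (SE, limma, adjusted p = 0.0130). Cbr1, a cytosolic carbonyl reductase of quinones, prostaglandins and lipid aldehydes, fell from 98.0, 66.6 and 84.1 to 28.1, 34.6 and 40.0, a log2 difference of -1.26 ± 0.18 (SE, limma, adjusted p = 0.0373). Hsd17b7, the 3-ketosteroid reductase of cholesterol synthesis, fell from 88.6, 103 and 75.3 to 43.6, 47.6 and 49.5, a log2 difference of -0.91 ± 0.13 (SE). For these genes the OO libraries were close together and well below the lowest OC library. Their calls held in 7, 6 and 3 of the 11 fits without 1 library, in the order given.

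The interferon-stimulated genes had the highest median of the 19 pathway lists. Of the 71 tested members, 68 were above 0, against 50% of all tested genes, and 5 rose, against 0.0579%. Every OO library lay above every OC library for 46 members, against 6.61% of all tested genes. The median log2 difference of the 71 was 0.82. This list was first written with results of these data in view, so that its direction is a description and not independent evidence. Members made up 71 of the 12080 tested genes. They were 46 of the 798 genes with every OO library above every OC library (5.76%), 30 of the 50 higher genes with the smallest p (60%) and 5 of the 7 genes that rose.

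**Figure D2:**
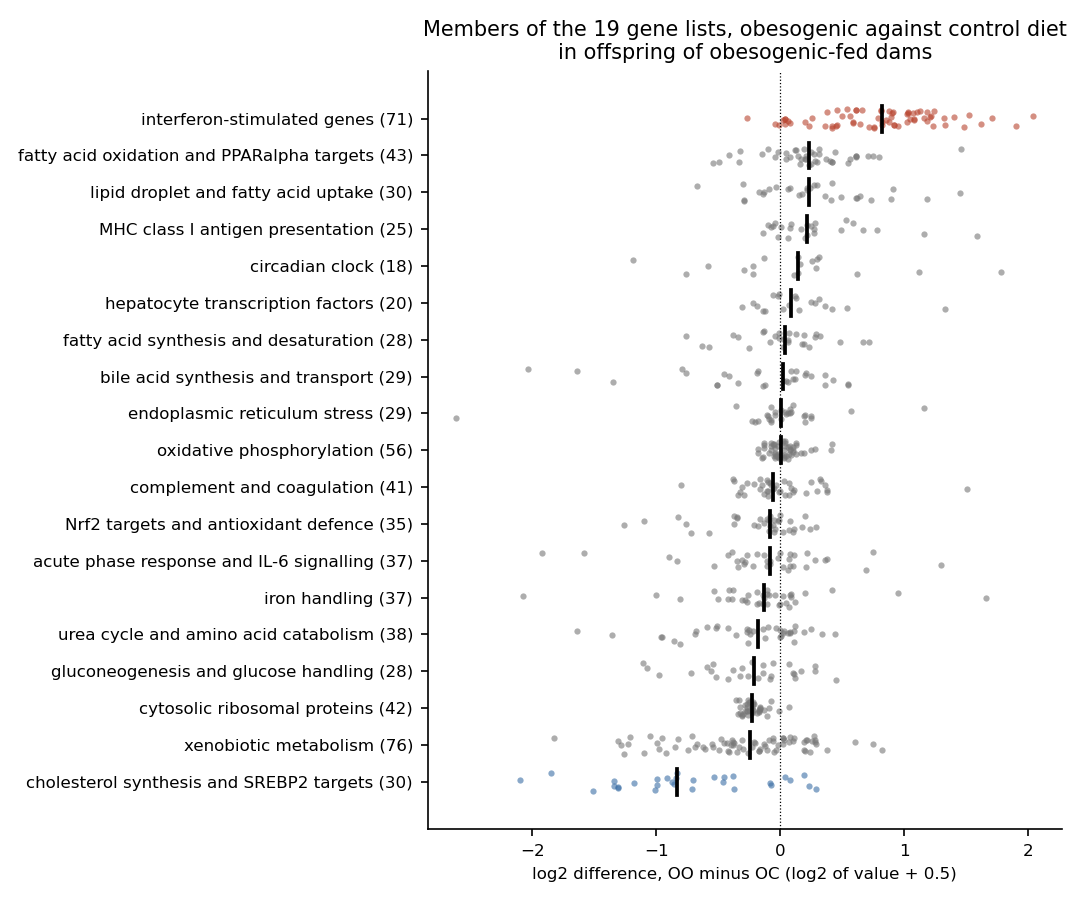
Log2 differences, OO minus OC, of the tested members of 19 pathway lists (horizontal axis, on log2 of value + 0.5), with 1 point per gene, the number of members in brackets and the list's median as a black bar. Interferon-stimulated genes (red) have the highest median, 0.82, and cholesterol synthesis genes (blue) the lowest, -0.83.

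By library, the median of the 71 genes relative to the CC mean was -0.02, 0.38 and 0.12 (log2) in OC and 1.10, 0.77 and 1.05 in OO. The lowest OO library, OO.1, was thus above the highest OC library, OC.1. With any 1 OC or OO library left out, 64 to 68 members lay above 0, and the median difference was 0.72 to 0.95. Marker genes of macrophages, which respond to interferon themselves, lay above 0 for 21 of 24 members with a median of 0.31 (0.16 without OC.2 and 0.52 without OC.1) and no gene called, and none was listed at 0. Their summed level was 709, 1033 and 684 in OC and 955, 980 and 982 in OO. Of lymphocyte markers only 2 and of neutrophil markers only 5 were measured, with medians of -0.06 and 0.14 (-0.27 to 0.08 and -0.01 to 0.36 without 1 OC or OO library). The part of these cells in the interferon genes was not tested. In whole liver, more cells of a type and more RNA per cell cannot be told apart.

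The members were examined by role. All 7 sensors of foreign nucleic acid lay above 0, with a median log2 difference of 0.91, and none passed the threshold. Ifih1, the MDA5 helicase, stood at 36.0, 49.9 and 29.5 in OC and at 77.7, 52.8 and 86.4 in OO (limma, adjusted p = 0.191). Zbp1, a sensor of Z-form nucleic acid, stood at 3.05, 6.54 and 3.08 in OC and at 14.4, 12.2 and 13.4 in OO, a log2 difference of 1.62 ± 0.32 (SE, limma, adjusted p = 0.128). Neither gene's groups overlapped, which the naming rule required of Zbp1.

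The 4 receptor genes had a median log2 difference of 0.06, and none passed the threshold. For 1 of the 4, every OO library lay above every OC library, against 6.61% of all tested genes. Ifnar1 and Ifnar2, the chains of the type I receptor, had log2 differences of 0.04 ± 0.10 (SE) and -0.04 ± 0.11 (SE), and Ifngr1, the ligand-binding chain of the interferon-gamma receptor, one of 0.08 ± 0.16 (SE). Of the factors, Irf7, which amplifies type I interferon transcription, stood at 17.1, 30.6 and 26.6 in OC and at 61.0, 42.3 and 46.1 in OO (log2 difference 1.02 ± 0.25, SE, limma, adjusted p = 0.268). Irf9, the DNA-binding subunit of the ISGF3 complex, had a log2 difference of 0.66 ± 0.16 (SE), while Irf1, a factor induced mainly by interferon gamma, had one of 0.02 ± 0.22 (SE) and Irf8, the factor of myeloid cells, one of -0.27 ± 0.19 (SE).

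Of the 42 effectors, 41 lay above 0, with a median log2 difference of 0.89. Every OO library lay above every OC library for 29, against 6.61% of all tested genes. Several effectors came close to the threshold. Ifi44, an antiviral protein induced by type I interferon, stood at 2.70, 4.26 and 3.23 in OC and at 12.2, 9.40 and 10.3 in OO, a log2 difference of 1.52 ± 0.25 (SE, limma, adjusted p = 0.0616). Ifit1, which binds viral RNA lacking a methylated cap, stood at 5.64, 10.9 and 5.72 in OC and at 34.0, 19.1 and 44.4 in OO, a log2 difference of 2.04 ± 0.36 (SE, limma, adjusted p = 0.0791). Usp18, the protease that removes ISG15 from proteins and restrains the type I receptor, stood at 5.76, 10.3 and 7.34 in OC and at 41.8, 14.9 and 42.0 in OO (limma, adjusted p = 0.0960). For Ifit1 and Usp18 the shallowest library, OO.1, was the lowest of OO. It lay above every OC library, as the naming rule required. Without OO.1 both passed the threshold, with log2 differences of 2.37 (limma, adjusted p = 0.0389) and 2.39 (limma, adjusted p = 0.00532).

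Isg15, the ubiquitin-like modifier, showed the same order, with 3.29, 4.26 and 3.82 in OC and 12.6, 6.08 and 13.6 in OO (limma, adjusted p = 0.160). Xaf1, a pro-apoptotic factor, Trim30a, a regulator of innate signalling, and Oasl2, a relative of the 2′,5′-oligoadenylate synthetases, had log2 differences of 1.22 ± 0.22, 0.95 ± 0.17 and 1.08 ± 0.21 (SE). Without OO.1, Xaf1 and Trim30a passed the threshold as well (limma, adjusted p = 0.0328 and 0.049). Lgals3bp, a secreted galectin-3 binding glycoprotein, had one of 0.89 ± 0.17 (SE, limma, adjusted p = 0.124). All 12 guanylate-binding proteins and immunity-related GTPases lay above 0 as well, with a median of 0.85. For 8 of them every OO library lay above every OC library, against 6.61% of all tested genes. Irgm1, a regulator of autophagy of pathogens, stood at 41.6, 56.1 and 44.5 in OC and at 102, 77.1 and 92.2 in OO (limma, adjusted p = 0.160). Reads of the closely related Gbp and Ifit genes may be shared between copies, so values of single members are uncertain.

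The promoters of these genes were read from RefSeq (GRCm38.p6, 250 bases before to 50 after the annotated start), since the response element is what the members would share. The core of the element (GAAA, any 2 bases and GAAA again), searched on both strands, occurred in 25 of the 50 interferon-stimulated genes that had a promoter in the table (50%), in 3.88% of the 9181 tested genes with one and in 3.44% of all promoters of the table. It occurred in 3 of the 12 genes that the naming rule took as higher in OO and that had a promoter, and in 0 of the 14 taken as lower. Windows of 60 bases around matches are shown for 2 named effectors that missed the threshold (Ifit1 and Trim30a), for Trim12c, which passed it, and for Isg15, each 5′ to 3′ on the gene's strand. Capitals mark the match, in either orientation.
Ifit1, chr19:34640769-34640828, plus strand, from -120 to -61: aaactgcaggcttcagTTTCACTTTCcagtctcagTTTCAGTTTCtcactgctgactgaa
Isg15, chr4:156200857-156200916, minus strand, from -98 to -39: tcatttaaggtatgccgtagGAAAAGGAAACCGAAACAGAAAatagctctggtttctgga
Trim12c, chr7:104353355-104353414, minus strand, from -65 to -6: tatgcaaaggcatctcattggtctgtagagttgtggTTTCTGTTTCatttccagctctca
Trim30a, chr7:104465199-104465258, minus strand, from -65 to -6: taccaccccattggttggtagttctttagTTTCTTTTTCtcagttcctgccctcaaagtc
Ifit1 carries separate matches, Isg15 a run of overlapping ones, and Trim12c and Trim30a 1 each close to the start. A match describes the sequence only, and binding was not measured.

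Antigen processing supplies the peptides that MHC class I shows to T cells. Of its 25 tested genes 19 lay above 0, with a median log2 difference of 0.22 (0.10 without OC.0). Only Tap1, described above, rose, against 0.0579% of all tested genes. Psmb9, the inducible subunit of the immunoproteasome, stood at 4.58, 7.30 and 6.46 in OC and at 20.2, 14.4 and 24.02 in OO, a log2 difference of 1.59 ± 0.26 (SE, limma, adjusted p = 0.0616, and 0.0389 without OO.1). Tap2, the partner of Tap1, stood at 13.5, 17.6 and 11.3 in OC and at 23.4, 21.8 and 27.6 in OO (limma, adjusted p = 0.271). The class I heavy chains H2-K1 and H2-D1 had log2 differences of -0.04 ± 0.13 (SE) and 0.06 ± 0.15 (SE), and the light chain B2m had one of 0.22 ± 0.17 (SE).

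Cholesterol synthesis genes had the lowest median of these lists, and their size depended on single libraries. Of the 30 tested genes 25 lay below 0, with a median log2 difference of -0.83. Every OO library lay below every OC library for 8, against 6.09% of all tested genes. Of the list 1, Hsd17b7, fell, against 0.0331% of all tested genes. Relative to the CC mean the list's median was 0.29, 1.15 and 0.31 (log2) in OC and -0.60, 0.00 and 0.41 in OO, so that OO.2 lay above OC.0 and OC.2. Without OC.1 the median difference was -0.35, and without OO.0 it was -0.52.

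Within the pathway, the late enzyme Tm7sf2, a sterol reductase, behaved like Hsd17b7, with 83.6, 95.8 and 97.8 in OC and 37.8, 43.7 and 57.1 in OO (log2 difference -1.01 ± 0.22, SE, limma, adjusted p = 0.168). Cyp51, the lanosterol demethylase, stood at 79.4, 202 and 80.3 in OC and at 29.4, 48.1 and 58.3 in OO, and the squalene epoxidase gene Sqle at 19.4, 85.0 and 20.9 and at 3.07, 7.19 and 16.3. For these enzymes OC.1 was far above the other OC libraries and OO.2 the highest of OO. The letters TCACNCCAC, a sterol response element, occurred in 1 of 22 promoters of the list (4.55%) and in 1.47% of the tested genes with a promoter.

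**Figure D3:**
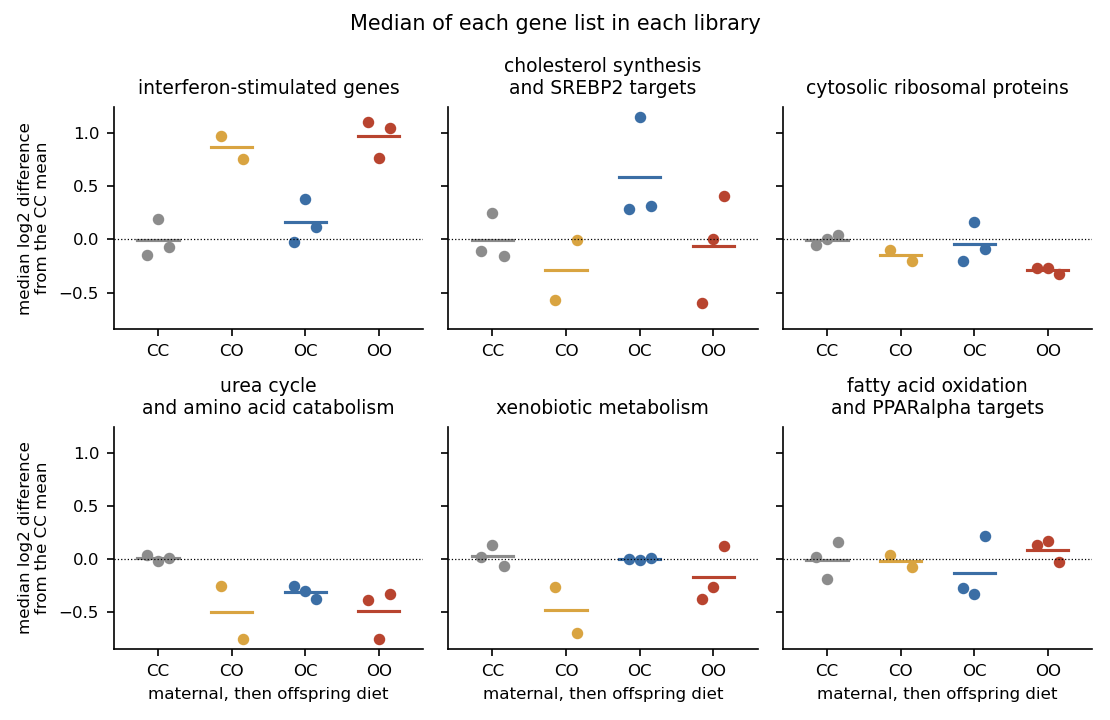
Median log2 difference from the CC mean (vertical axes, shared scale) over the tested members of 6 gene lists in each library, by group (horizontal axes), with group means as lines. The interferon-stimulated genes separate OO from OC, with 0.77 as the lowest OO and 0.38 as the highest OC library, while for cholesterol synthesis OC.1 at 1.15 and OO.2 at 0.41 stand apart from their groups.

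Hepcidin came close to the threshold. Hamp stood at 289, 306 and 279 in OC, with little spread, and at 31.2, 106 and 98.7 in OO. The log2 difference was -2.07 ± 0.35 (SE, 95% interval -2.82 to -1.31, limma, adjusted p = 0.0621). The rule that named Hamp and Bmp6 required no overlap. The highest OO value of Hamp was well below the lowest OC value, and OO.0 was the lowest library. Without OO.0 the log2 difference was -1.50 (limma, adjusted p = 0.00088), and without OO.1 it was -2.38 (limma, adjusted p = 0.0333). Bmp6, the upstream ligand, was lower in every OO library too, with 6.23, 4.87 and 6.17 in OC and 2.57, 2.21 and 3.10 in OO, a log2 difference of -1.0 ± 0.20 (SE, limma, adjusted p = 0.136).

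The highest log2 difference of the iron handling list belonged to the second hepcidin gene, Hamp2, a close copy of Hamp with low values. Hamp2 stood at 3.76, 1.22 and 0.587 in OC and at 2.54, 4.98 and 14.7 in OO, a log2 difference of 1.66 ± 0.69 (SE, limma, adjusted p = 0.571). Its OC.2 value lay close to the 3-read level of that library (0.44). Its groups overlapped, OO.2 was far above the other libraries, and how reads were divided between Hamp and Hamp2 is unknown. Of 37 tested members 25 lay below 0, with a median of -0.13 (0.00 without OC.1 and -0.20 without OC.2), and none passed the threshold. Every OO library lay below every OC library for 3 of the 37, against 6.09% of all tested genes, and above for 2, against 6.61%. Among SMAD target genes, Id1, a helix-loop-helix inhibitor, stood at 10.8, 7.00 and 14.7 in OC and at 3.87, 6.08 and 7.84 in OO, and the inhibitory Smad7 at 13.7, 16.4 and 17.5 and at 8.85, 14.9 and 10.1. Both overlapped between groups. The exporter ferroportin, Slc40a1, stood at 276, 235 and 296 in OC and at 134, 242 and 197 in OO. The ferrireductase Steap4 had no overlap and was higher in OO, with 67.5, 140.1 and 72.5 in OC and 145, 164 and 209.8 in OO (log2 difference 0.95 ± 0.38, SE, limma, adjusted p = 0.559).

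**Figure D4:**
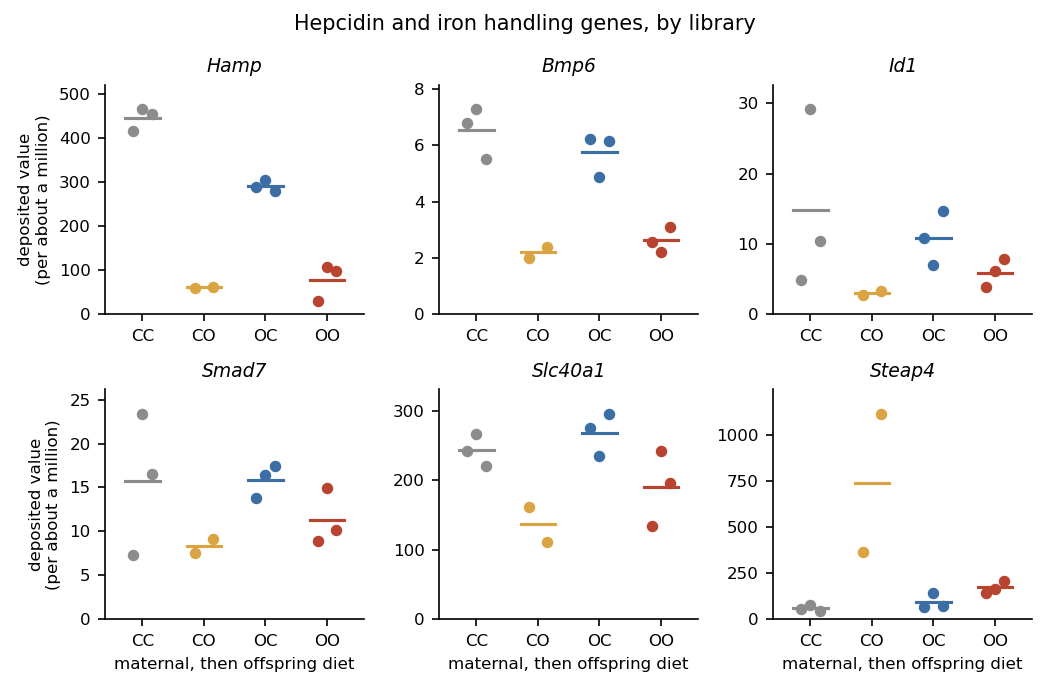
Deposited values (vertical axes, starting at 0) of hepcidin (Hamp), Bmp6, Id1, Smad7, ferroportin (Slc40a1) and Steap4 in each library, by group of maternal and then offspring diet (horizontal axes), with group means as lines. Hamp and Bmp6 are lower in every OO than in every OC library, which the naming rule required of them. Id1, Smad7 and Slc40a1 overlap between OO and OC.

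The promoter of Hamp holds the letters GGCGCC, the core of a BMP response element, and TTCNNNGAA, a STAT site, next to each other, and both are shown in capitals because they are the 2 inputs named above.
Hamp, chr7:30944100-30944159, minus strand, from -130 to -71: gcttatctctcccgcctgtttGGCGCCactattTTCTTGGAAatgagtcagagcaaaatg
Of the tested genes with a promoter, 24.1% held GGCGCC and 8.32% held TTCNNNGAA in the same window.

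Among genes of xenobiotic metabolism, 53 of 76 lay below 0, with a median log2 difference of -0.24 (-0.12 without OO.0 and -0.37 without OO.2). Of these genes 1, Cbr1, fell, against 0.0331% of all tested genes. Cytochromes P450 lay below 0 in 17 of 22 cases. Cyp3a11, the main inducible drug-oxidising P450 of mouse liver, stood at 6143, 2496 and 4206 in OC and at 885, 1127 and 1474 in OO, without overlap but with a wide OC group (log2 difference -1.82 ± 0.47, SE, limma, adjusted p = 0.311). Ugt1a9, a glucuronosyltransferase, stood at 259, 191 and 251 in OC and at 71.6, 91.2 and 131 in OO, a log2 difference of -1.28 ± 0.26 (SE, limma, adjusted p = 0.145). Ces2a, a carboxylesterase that hydrolyses drugs and acylglycerols, stood at 355, 239 and 287 and at 142, 104 and 126, and Ugt2b35, another glucuronosyltransferase, at 202, 163 and 219 and at 123, 120.0 and 123 (limma, adjusted p = 0.136 for both). Members of the Cyp3a, Ugt and Ces families have close copies, so their single values are uncertain.

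NRF2 targets gave a mixed picture. Of 35 members 25 lay below 0, with a median log2 difference of only -0.08 (-0.14 to -0.03 when each OC or OO library was left out). Htatip2 and Cbr1 fell, against 0.0331% of all tested genes. Pir, an iron-binding nuclear protein outside the list, stood at 15.3, 16.4 and 14.1 in OC and at 8.38, 10.5 and 7.52 in OO (log2 difference -0.77 ± 0.15, SE, limma, adjusted p = 0.117, and 0.049 without OO.1). By contrast Gclc, the catalytic subunit of glutathione synthesis, had a log2 difference of -0.02 ± 0.28 (SE), and Nqo1, a quinone reductase often used as a marker of NRF2 activity, one of -0.35 ± 0.31 (SE). The letters TGACNNNGC, the core of the antioxidant response element, occurred in 13 of the 30 listed genes with a promoter (43.3%), in 16.8% of the tested genes and in 12.4% of all promoters. The match in Htatip2 is shown because this gene fell.
Htatip2, chr7:49759437-49759496, plus strand, from -75 to -16: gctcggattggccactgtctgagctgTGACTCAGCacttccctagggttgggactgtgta

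Sterol catabolism had single genes without overlap between groups, which the naming rule required of Cyp27a1. Cyp27a1, the mitochondrial sterol 27-hydroxylase of the acidic bile acid pathway, stood at 550.1, 508 and 486 in OC and at 300.5, 273 and 323 in OO, a log2 difference of -0.79 ± 0.14 (SE, limma, adjusted p = 0.0779). Cyp39a1, an oxysterol 7-hydroxylase, stood at 66.1, 41.5 and 38.8 in OC and at 17.4, 26.5 and 13.1 in OO (limma, adjusted p = 0.191). Cyp7a1, the rate-limiting enzyme of the classic pathway, overlapped, with 161, 454 and 168 in OC and 36.2, 35.9 and 303 in OO. Over the 29 bile acid genes the median log2 difference was 0.02 (-0.08 to -0.01 without 1 OC or OO library). Csad, which makes the taurine used to conjugate bile acids, stood at 682, 598 and 722 in OC and at 159.9, 383 and 140.5 in OO, a log2 difference of -1.70 ± 0.30 (SE, limma, adjusted p = 0.0779). The high OO value was that of OO.1, and without it the log2 difference was -2.15 (limma, adjusted p = 0.000712).

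Of 38 genes of the urea cycle and amino acid catabolism, 0 passed the threshold, and 24 lay below 0 with a median of -0.18. Of the 8 urea cycle genes 7 lay below 0, with a median of -0.47, and every OO library lay below every OC library for 5, against 6.09% of all tested genes. Asl, argininosuccinate lyase, stood at 859, 705 and 691 in OC and at 366, 207 and 323 in OO, a log2 difference of -1.36 ± 0.32 (SE, limma, adjusted p = 0.230). Arg1, arginase, stood at 1376, 1587 and 1205 in OC and at 766, 638 and 903 in OO, whereas Otc, the mitochondrial carbamoyltransferase, had a log2 difference of -0.03 ± 0.21 (SE). Cps1, the first enzyme of the cycle, had a log2 difference of -0.81 ± 0.32 (SE). Of the 30 genes of amino acid catabolism 17 lay below 0, with a median of -0.11.

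Glucose and fat genes included none past the threshold. Of 28 genes of gluconeogenesis and glucose handling 20 lay below 0, with a median of -0.21 and none called. Got1, the cytosolic aspartate aminotransferase, stood at 221, 249.7 and 168 in OC and at 156, 61.1 and 104 in OO (limma, adjusted p = 0.326), while Pck1, the rate-limiting carboxykinase, overlapped. Fatty acid oxidation genes lay above 0 in 34 of 43 cases, with a median of 0.23 that was 0.10 without OC.1 and 0.37 without OC.2. The PPARα target Vnn1, a pantetheinase, stood at 71.7, 61.9 and 183 in OC and at 283, 245 and 243 in OO, a log2 difference of 1.46 ± 0.32 (SE, limma, adjusted p = 0.186). OC.2 was the highest OC library and still below every OO library.

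Lipid droplet and fatty acid uptake genes lay above 0 in 21 of 30 cases, with a median of 0.23 (0.13 without OO.2). Fabp2, a fatty acid binding protein, stood at 61.0, 76.8 and 124 in OC and at 189.6, 135 and 147 in OO (limma, adjusted p = 0.311). The droplet coat gene Plin2 overlapped, with 724, 507 and 1029 in OC and 1175, 1168 and 985 in OO. Fatty acid synthesis genes were centred near 0, at 0.04 over 28 members, with Fasn, fatty acid synthase, at 175, 216 and 137 in OC and 86.6, 104 and 154 in OO and Scd1, the stearoyl-CoA desaturase, at 4770, 3127 and 6999 and at 3346, 10772 and 12962.

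Of 42 genes of cytosolic ribosomal proteins none passed the threshold, and 41 lay below 0, with a median log2 difference of -0.23. Every OO library lay below every OC library for 17 of them, against 6.09% of all tested genes. The list's median relative to CC was -0.20, 0.16 and -0.09 in OC and -0.27, -0.27 and -0.33 in OO. Without OC.1, the library high in acute phase transcripts, the difference was -0.13. Oxidative phosphorylation genes had a median of 0.01 over 56 members, and the endoplasmic reticulum stress list one of 0.01 over 29, which was 0.19 without OC.1 or OO.2 and -0.21 without OO.1. In the latter, Asns, asparagine synthetase, stood at 7.401, 15.5 and 3.23 in OC and at 2.17, 0.277 and 0.490 in OO, where the last 2 values are at or below 3 reads.

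Among the genes closest to the threshold outside these lists, Emp2, a tetraspan membrane protein, stood at 11.8, 10.3 and 7.78 in OC and at 4.91, 4.42 and 3.43 in OO (log2 difference -1.13 ± 0.20, SE, limma, adjusted p = 0.0791). Nipal1, a magnesium transporter, stood at 12.4, 11.1 and 30.7 and at 3.07, 3.87 and 3.27, and Cryl1, an enzyme of the glucuronate pathway, at 14.1, 19.2 and 16.6 and at 6.21, 6.91 and 7.68. Galnt4, which starts mucin-type O-glycans, was higher in OO, with 15.9, 22.2 and 18.9 in OC and 30.0, 31.8 and 34.97 in OO. The adjusted p of the last 3 was 0.128 in limma. The rule that named these 4 genes required no overlap between groups. Marker genes of stellate cells and matrix lay above 0 in 18 of 22 cases, with a median of 0.30 (0.19 without OO.2 and 0.46 without OO.0), and those of endothelial cells were centred at -0.04.

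The same change of offspring diet was measured in sons of chow-fed dams (CO against CC), in libraries that OO and OC do not share. Both comparisons used the same estimate of each gene's spread, so a call in both is not independent evidence. In CO against CC, 214 genes were called (1.77%), 122 higher (1.01%) and 92 lower (0.762%). Over all tested genes, 63.4% had the same sign in the 2 comparisons. All 11 genes called in OO against OC had the same sign in CO against CC, where 6 of the 7 higher and 4 of the 4 lower genes were called as well. The exception was Samd9l, at 23.8, 25.8 and 22.4 in CC and 40.8 and 40.2 in CO (log2 difference 0.75, limma, adjusted p = 0.101). Srgap3 stood at 5.55, 5.42 and 4.97 in CC and at 0.833 and 0.437 in CO, a log2 difference of -2.38 that matched the one in sons of obesogenic-fed dams. Cbr1 differed by -1.75 there against -1.26 here, Htatip2 by -1.39 against -1.10, and Adar by 0.68 against 0.76.

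Of the genes called higher in CO against CC, 119 of 122 had the same sign in OO against OC, against 63.4% of all tested genes. An unadjusted p under 0.05 (limma) in that direction was reached by 83, against 4.59% of all tested genes. The median log2 differences of the 122 were 1.18 in CO against CC and 0.59 in OO against OC. Of the genes called lower, 88 of 92 had the same sign and 52 reached that level, against 3.37% of all tested genes. The medians of the 92 were -1.14 and -0.47. Choosing genes by their size in CO against CC favours larger values there, so the medians do not compare the effects. The interaction, which tests whether the diet effect differs between the kinds of dam, called 0 of 12080 genes (limma, smallest adjusted p = 0.42), with 547 at an unadjusted p under 0.05 (4.53%). In the 11 called genes its point estimates lay close to 0 for Srgap3 (-0.00), Tap1 (0.04) and Adar (0.09) and were largest for Cbr1 (0.49) and Samd9l (0.47).

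**Figure D5:**
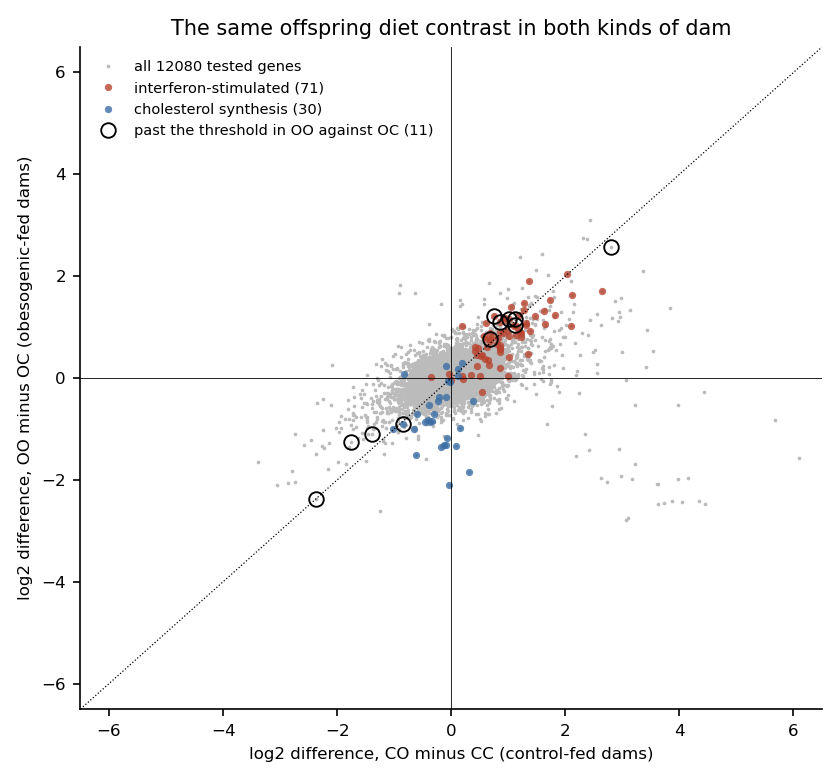
Log2 difference between the offspring diets for each tested gene in sons of chow-fed dams (CO minus CC, horizontal axis) and of obesogenic-fed dams (OO minus OC, vertical axis), with both axes limited to ±6.5, 1 gene outside them and the dotted line marking equal values. The 11 genes past the threshold in OO against OC (circles) lie on the same side of 0 on both axes, as do 63.4% of all tested genes. Most interferon-stimulated genes (red) lie above 0 on both.

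The interferon-stimulated genes had a median of 0.86 in CO against CC and 0.82 in OO against OC, with 21 and 5 genes called. Of the 71 members, 0 were called for the interaction and 1 reached an unadjusted p under 0.05. Hamp stood at 416, 466 and 455 in CC and at 58.7 and 62.9 in CO, a log2 difference of -2.86, and its interaction was 0.79 ± 0.52 (SE, 95% interval -0.34 to 1.93, limma, adjusted p = 0.936). Acute phase genes, which were high in OC.1 within the groups compared here, had a median of 1.05 in CO against CC and of -0.08 in OO against OC, where it was 0.35 without OC.1. The 2 CO libraries lay far apart, with list medians relative to the CC mean of 0.43 in CO.0 and 1.58 in CO.1 (log2). The acute phase medians of the 2 comparisons thus rest on single libraries and do not compare the kinds of dam.

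The 6 genes set aside were listed at 0 in every OO library. They are the mitochondrial ribosomal RNA gene mt-Rnr2, the serpin genes Serpina1b and Serpina1d, the major urinary protein gene Mup17, Gm8893 and Gm24105, and mt-Rnr2 and Mup17 were listed at 0 in CO as well. All 6 were above 0 in every OC and CC library. Whether counting differed between the groups for other genes was not tested. No fold change is given for these genes, and the cause of the zeros was not tested. The close copy Serpina1e, present in every library, stood at 2526, 4595 and 1972 in OC and at 1787, 1345 and 347 in OO (limma, adjusted p = 0.439).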

How the data were processed

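Liver RNA libraries were made with a TruSeq kit and reads were aligned with Bowtie 1.2.3 to the mm8 build, per the labels' protocols and the submitters' processing notes. The authors deposited a signal per gene. Judged from the numbers alone it is a count scaled by a constant of each library: between 93% and 96.8% of the entries equalled a whole number of steps of 0.0334 to 0.277, the worth of 1 read (tolerance 0.01), and these steps gave the depths. The file calls them CPM, per the file headers, but library totals were 929699 to 1099404. Since whole reads did not come out for nearly all genes of every library, no count test was run. Counter, annotation, strand setting and scaling were left as not given in the sources used here. Overlapping and near-identical genes can share reads. Symbols were found for 11965 of 12086 genes by Ensembl identifier.

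The test was limma 3.58.1 (R 4.3.3) with an intensity trend on log2(value + 0.5), with 1 mean per group over 11 libraries (7 residual and 4.67 prior degrees of freedom) and Benjamini-Hochberg adjustment at 0.05. Fold changes on that scale understate those of low genes. Within OC and OO, correlations of log2 values between libraries were 0.959 to 0.976, and no pair was a duplicate. The design had foreseen CPM and 12 samples. The table used here has 11 libraries, whose columns name a group but not a labelled sample. The contrasts were OO with OC, CO with CC, and their interaction. The fit was tested on simulated data. Floors of 3 reads cover counting error only.

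The comparison, the gene lists (19 of pathways and 11 of cell types or tissues) and the rules were chosen with earlier results of these data known. Genes named were those past the threshold with a symbol, then in each direction the 10 with the smallest p that missed it (mean of at least 5, no overlap), then list members by p or for their role. ENSMUSG00000054588, Serpina1e and the genes with separate libraries (Lars2, Hp) were named after their values were seen. Of the genes called, 1 is not reported here, nor are some list members that the rule takes. Promoters were RefSeq's, in a table of 32851 windows for 27025 genes. Figures used matplotlib 3.10.9 with Python 3.11.15, numpy 2.4.6 and pandas 2.3.3.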

Additional observations from a re-analysis of the deposited data

How the results depend on the processing

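The number of genes called in OO against OC (11, 7 higher and 4 lower) was 20 (9 and 11) when the genes listed at 0 were tested too, 113 (72 and 41) with sample weights, 13 (9 and 4) with a robust variance, 4 (3 and 1) with only the OO and OC libraries, and 21 (13 and 8) at an adjusted p under 0.1. It was 10 (6 and 4) with a pseudocount of 0.1 or quantile normalization, and 11 (7 and 4) with a pseudocount of 2, a minimum value of 5 in 3 libraries or median-of-ratios scaling. Leaving out each library in turn gave 0 to 21 genes, 0 to 15 higher and 0 to 7 lower. The interaction called 4 genes with the genes listed at 0 tested too, 0 to 1 without 1 library (1 without CO.0, where the lone CO library is assumed to vary like the other groups), and 0 otherwise. The cause of these differences was not tested. Over named genes and alternatives, 488 values kept their side of the threshold, 70 were no longer past it, 42 came to be past it and 0 changed sign. Only genes called in the main fit could lose a call, so the 70 all belong to these. The 488 include values of genes that were not called in it. Of list medians, 555 moved by less than 1 SD and 15 by more. Counts of list members without 1 library were chosen after the data were seen. Tests of edgeR, DESeq2 and voom were not run, because the share of values that came out as whole reads (93% to 96.8%) was taken as too low in 6 libraries. No paired analysis was possible because the columns carry no replicate number of the labels. Depth limits genes near 3 reads, a value of up to 0.829 in OO.1.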
